A study of Mus musculus with 11 samples.

Results

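The histone genes comprised 73 of the 14604 genes listed for Tregs of MC38 tumors and of the spleens of mice that bore such tumors. They were taken by symbol, as every gene whose name begins with Hist1h to Hist4h, H2af, H3f3 or H1f. Of these, 62 were Hist genes, which are called replication-dependent here, and 11 were variant histone genes. MC38 is a colon adenocarcinoma line of the mouse that forms tumors when grafted. The cells had been sorted as live CD4+ cells bearing GITR and CD25, and their RNA was sequenced from 11 libraries after ribosomal RNA was removed. Wild-type (WT) mice had the genotype CD177flox/flox and gave 3 spleen and 3 tumor libraries. Knockout (KO) mice had the genotype CD177flox/flox/FOXP3-CreYFP and gave 3 spleen and 2 tumor libraries, so the floxed allele and the MC38 tumor were shared by all groups and Cre was driven by Foxp3, a gene of Tregs. By the methods, the spleens were those of the mice whose tumors were taken, so spleen and tumor libraries share animals, but the labels do not say which libraries came from the same mouse. The labels also do not give the age of the mice or say whether replicates were separate mice, so the p-values below measure the spread between these libraries, which may be technical in part. Cd177 is not among the listed genes, and the genotype labels could not be checked against it.

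Histones are the proteins around which DNA is wound in nucleosomes, with H2A, H2B, H3 and H4 in the core and H1 on the linker DNA between cores. The replication-dependent genes lie in clusters, have no introns as a rule and are transcribed mainly in S phase, when new DNA has to be packaged. Their mRNAs typically end in a conserved stem-loop bound by SLBP instead of a poly(A) tail, so a library made by removing ribosomal RNA can hold transcripts that a poly(A) selection would largely miss. Variant histones are made from genes outside these clusters, mostly with polyadenylated mRNAs, and are laid into chromatin outside replication too. In T cells, histone transcripts of the replication-dependent class are known to rise when resting cells enter the cell cycle.

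The annotated transcripts of GENCODE release M21 show a feature found mostly in the replication-dependent class. A stem-loop with a 6-base stem beginning GG and a 4-base loop beginning TT was searched for. It was found in the annotated transcripts of 40 of the 62 replication-dependent genes and of 1 of the 11 variant genes. Counted by transcript and not by gene, it was in 301 of all 141767 transcripts (0.212%), histone transcripts included. The forms below are shown because they are the mark by which replication-dependent mRNAs are processed, with the stem in capitals and the loop in lower case, as DNA letters.
In 24 genes of the replication-dependent class: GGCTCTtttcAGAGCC
In 6 genes, all of H4: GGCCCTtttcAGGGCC
In 5 genes of H2B and H3: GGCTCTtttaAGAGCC
In H2afx, the variant with a stem-loop: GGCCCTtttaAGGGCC
The other forms differed from these within the stem or in the last base of the loop. A gene in which no match was found may have an annotated transcript that stops before the stem-loop.

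The promoters of the class share motifs as well. RefSeq promoters on GRCm38.p6, from 250 bases before the start to 50 bases after it, were matched for 55 of the 62 replication-dependent and 9 of the 11 variant genes. CCAAT, searched on both strands, was in 47 of the 55 promoters (85.5%), compared with 37.9% of 27025 promoters of all genes. It was in all 16 promoters of H2A, all 13 of H2B, all 10 of H3 and all 5 of H1, but in 3 of 11 of H4 (27.3%). The octamer ATTTGCAT, the site of the Oct factors, was in 6 of 16 H2A and 4 of 13 H2B promoters and in none of H1, H3 and H4, compared with 1.75% of all promoters. Some H2A and H2B genes stand head to head, so that their windows overlap and a site can count for both. The windows of Hist1h2ae and Hist1h2bg, for example, hold the same octamer. TATAAA was in 32 of 55 (58.2%), compared with 14.2% of all promoters, and in 1 of the 9 variant promoters. The 2 stretches below are the 250 bases before the start of 2 H2B genes, with CCAAT, the octamer and TATAAA, on either strand, in capitals. They are shown because Hist1h2bg, in the Hist1 cluster, was among the most abundant of the H2B genes and was higher in tumor libraries. No difference was called for Hist3h2ba, in the Hist3 cluster. A match is a description of these letters and not a measured binding site.
Hist1h2bg, chr13:23571150-23571399, plus strand: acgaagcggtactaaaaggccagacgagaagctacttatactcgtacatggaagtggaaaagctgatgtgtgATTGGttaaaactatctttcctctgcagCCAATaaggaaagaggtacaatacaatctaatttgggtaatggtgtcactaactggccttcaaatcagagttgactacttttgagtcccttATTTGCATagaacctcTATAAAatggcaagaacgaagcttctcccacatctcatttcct
Hist3h2ba, chr11:58948661-58948910, plus strand: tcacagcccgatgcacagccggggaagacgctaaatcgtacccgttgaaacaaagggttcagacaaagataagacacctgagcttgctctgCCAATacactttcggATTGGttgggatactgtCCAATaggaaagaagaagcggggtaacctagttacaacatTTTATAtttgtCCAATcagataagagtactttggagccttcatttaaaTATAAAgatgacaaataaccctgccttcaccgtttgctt
Both promoters hold CCAAT and TATAAA, and the octamer was matched in Hist1h2bg and not in Hist3h2ba. This contrast does not extend to the other genes. The octamer was also matched in Hist3h2a of the Hist3 cluster, which was not called, and was not matched in Hist1h2bj, which rose by 2.38.

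Replication-dependent histone genes were higher in the libraries sorted as tumor-infiltrating (TI) Tregs than in those sorted as spleen Tregs nearly throughout. Of the 62 genes, 58 rose, 0 fell and 4 were not called, with a median difference of 1.75 on the log2(n + 1) scale. Here n is the authors' value for a gene, a difference is the mean of 5 tumor libraries minus the mean of 6 spleen libraries, and a gene was called when its Benjamini-Hochberg adjusted p from limma over 13897 genes was below 0.05. By the same fit 43.1% of all genes tested were higher and 35.9% were lower in tumor libraries, with a median difference of 0.08. In 54 of the 62 genes every tumor library lay above every spleen library, which held for 35.2% of all genes. The 4 called genes whose libraries overlapped were Hist1h1a (1.02), Hist2h2ab (1.03), Hist2h2be (0.47) and Hist2h3c1 (0.92). In bulk RNA, more cells of a dividing kind and more histone RNA per cell cannot be told apart. Markers of myeloid cells and fibroblasts also rose in the tumor libraries, as given below, so the values are not those of Tregs alone.

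**Figure D1:**
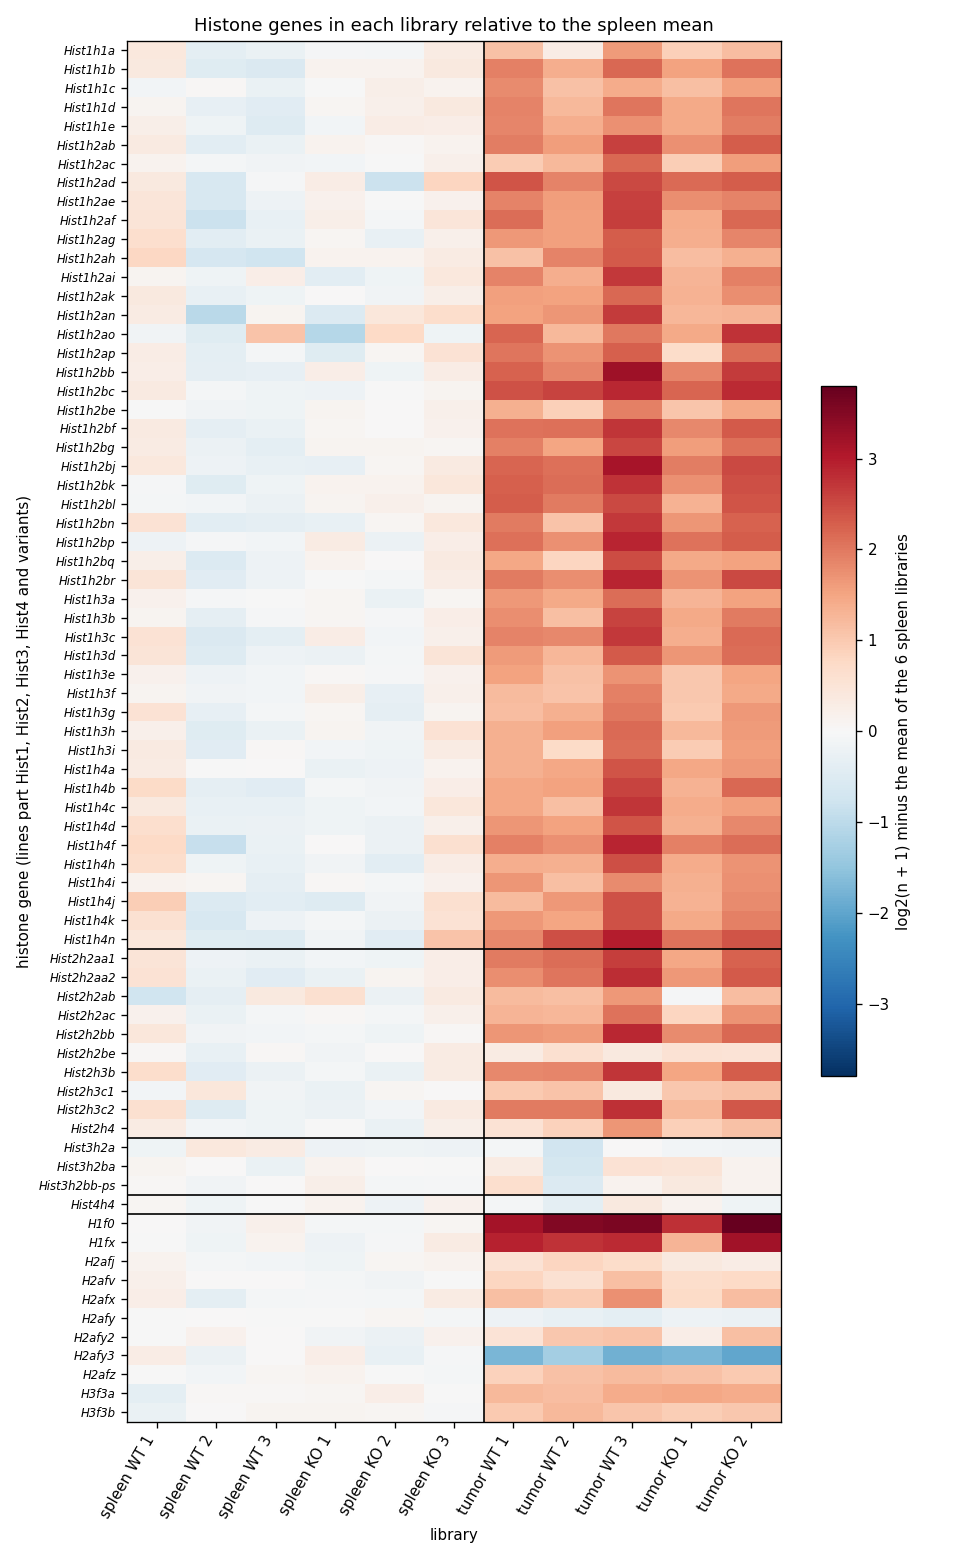
Each line is 1 of the 73 histone genes and each column 1 of the 11 libraries, and color gives log2(n + 1) minus the mean of the 6 spleen libraries. Tumor columns are red for nearly all Hist1 and Hist2 genes and near white for the Hist3 and Hist4 genes, H1f0 is the deepest red of the variants and H2afy3 is blue.

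The size of these differences depended on how libraries were scaled, because the summed n of a library was 712832 to 844331 in spleen and 1103159 to 1304548 in tumor. Scaling all libraries to equal totals moved the median of all genes to -0.44, and the replication-dependent median to 1.13, which is 1.57 above that of all genes. Under that scaling 55 of these genes passed the threshold above spleen and 4 below it, Hist2h2be turned to -0.01, and there were 3286 genes higher and 7819 lower among all genes. Quantile normalization gave 58 higher and 1 lower with a median of 1.19, against 4626 higher and 6358 lower among all genes with a median of -0.16. Median centring gave 57 higher and 1 lower with a median of 1.52, against 4805 and 6269 and a median of -0.14. The methods state an approximate sequencing depth, but not how n was scaled, and the reads behind a single n cannot be worked out, so no counting error is given.

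Summed over genes, the replication-dependent class had an n of 4159 ± 834 (SD, n = 6) for spleen and 15092 ± 4502 (SD, n = 5) for tumor libraries, a 3.63-fold difference. As a share of everything in the library this was 0.536% ± 0.124 in spleen and 1.24% ± 0.306 in tumor, a 2.31-fold difference. The shares of single libraries were 0.401% to 0.716% in spleen. In tumor they were 1.09%, 1.09% and 1.71% in WT and 0.938% and 1.36% in KO mice, and thus did not overlap with spleen. The 11 variant genes summed to 0.162% ± 0.0133 in spleen and 0.221% ± 0.0174 in tumor, a 1.36-fold difference in share.

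**Figure D2:**
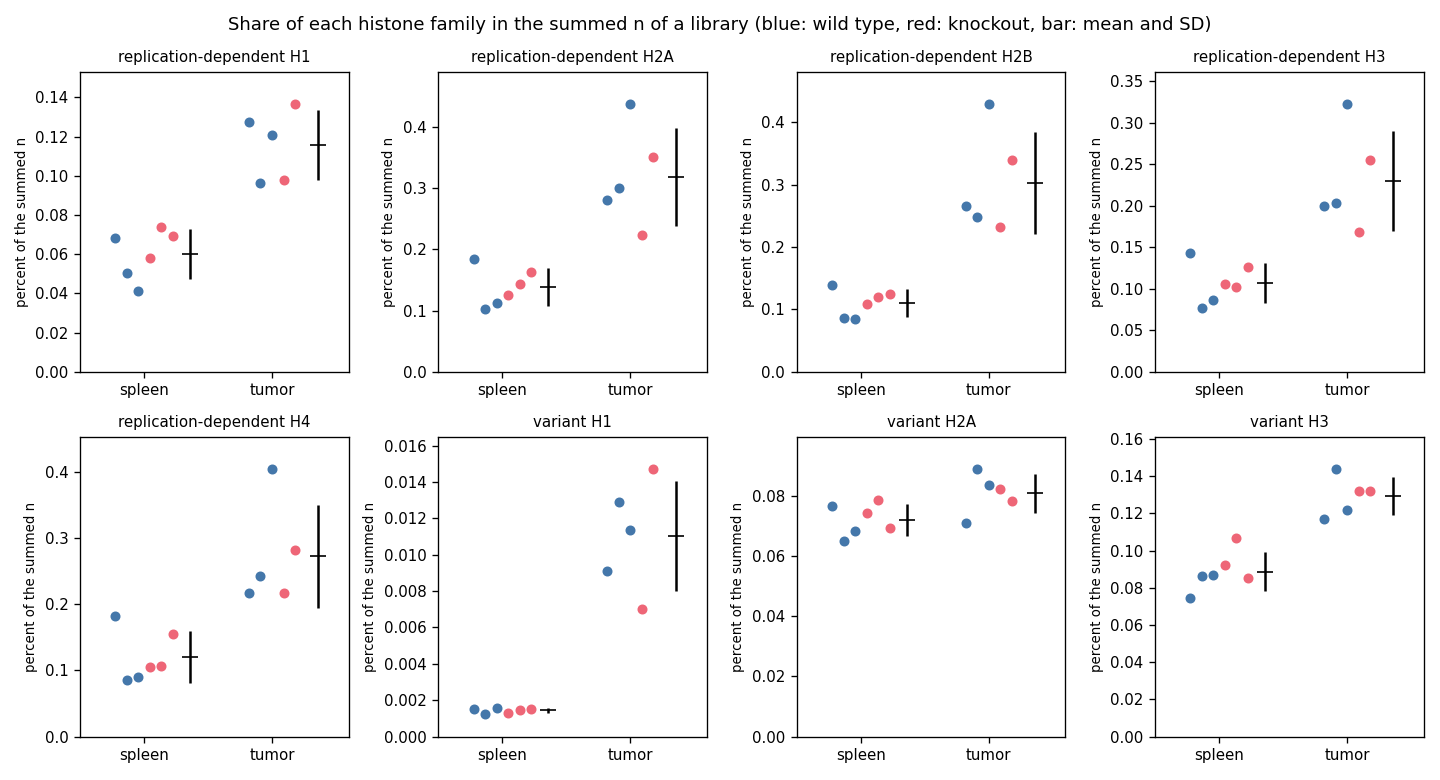
Each panel gives the percent of a library's summed n that falls on 1 histone family, for 6 spleen and 5 tumor libraries, with points for libraries (blue WT, red KO) and a bar for mean and SD. All tumor points lie above all spleen points in the 5 replication-dependent families, in variant H1 and in variant H3, but not in variant H2A.

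The linker histones of the class are Hist1h1a to Hist1h1e, and all 5 rose, with a median difference of 1.67. Hist1h1c, which like other H1 genes makes the protein that closes DNA onto the nucleosome, was the most abundant by mean log2 value. Its log2(n + 1) ranged from 6.93 to 7.41 in spleen libraries (median 7.20) and was 8.98, 8.32 and 8.61 in WT and 8.35 and 8.75 in KO tumor libraries. No tumor library was as low as any spleen library, and the difference was 1.41 (SE 0.122, limma adjusted p = 2.37e-07). The rise of Hist1h1b was the largest in the family, at 1.82 (SE 0.198, limma adjusted p = 2.15e-06). Hist1h1b was 5.18 to 6.11 in spleen (median 5.87) and 7.65, 7.13 and 7.93 in WT and 7.27 and 7.82 in KO tumor libraries, again without overlap. Hist1h1e and Hist1h1d rose by 1.67 and 1.72. Hist1h1a showed the smallest difference, and the second WT tumor library, at 5.45, was below the highest spleen library, at 5.58.

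Of the 17 H2A genes, 16 rose with a median difference of 1.77. The most abundant was Hist2h2aa2, which was 6.78 to 7.76 in spleen (median 7.14) and 8.98, 9.24 and 10.003 in WT and 8.85 and 9.54 in KO tumor libraries. The groups were separate, and the difference was 2.11 (SE 0.217, limma adjusted p = 1.21e-06). None of the 31-base words of its annotated transcripts is unique to it among all transcripts, read on both strands. Its value may thus hold reads of near copies or of transcripts of the opposite strand. Hist1h2ak and Hist1h2ap rose by 1.67 and 1.77, and of the pair Hist1h2ap varied more in tumor, where the first KO library was 7.62 and the others were 8.64 to 9.21. The largest rise was that of Hist1h2ad, from 2.41 to 4.05 in spleen libraries (median 3.36) to 5.62, 5.11 and 5.76 in WT and 5.40 and 5.53 in KO tumor libraries. The difference was 2.24 (SE 0.257, limma adjusted p = 3.43e-06), and the spleen libraries were spread more widely (SD 0.620) than the tumor libraries (SD 0.245).

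The H2B genes had the highest median of the 5 families, 2.06, with 14 of 16 higher. Hist1h2bg, whose promoter is shown above, was 7.04 to 7.74 in spleen (median 7.50) and 9.32, 8.92 and 9.96 in WT and 9.0 and 9.50 in KO tumor libraries. Its difference was 1.93 (SE 0.178, limma adjusted p = 4.53e-07), and no tumor library was within the spleen range. Hist1h2bk rose by 2.27 and Hist2h2bb by 2.02. The largest rise of all 62 genes was that of Hist1h2bc, on chromosome 13 from 23684199 to 23692908 on the plus strand of GRCm38. It was 4.75 to 5.31 in spleen (median 4.91) and 7.36, 7.53 and 7.82 in WT and 7.17 and 7.78 in KO tumor libraries. The difference of Hist1h2bc was 2.58 (SE 0.13, limma adjusted p = 1.65e-09), and it ranked 700 among the 13897 genes, counted from the largest rise to the largest fall. No stem-loop was found in the annotated transcripts of Hist1h2bc.

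All 12 H3 genes rose, with a median difference of 1.59. Hist2h3b, which encodes a replication-dependent H3 protein, was 6.72 to 7.84 in spleen (median 7.02) and 9.0, 9.01 and 9.87 in WT and 8.67 and 9.47 in KO tumor libraries. The groups did not overlap and differed by 2.04 (SE 0.23, limma adjusted p = 2.91e-06). Hist1h3c rose by 1.99 and Hist1h3i by 1.36. Hist2h3c2 had the largest rise, 2.06 (SE 0.251, limma adjusted p = 6.14e-06), from 4.12 to 5.21 in spleen to 5.83 to 7.37 in tumor libraries.

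Of the 12 H4 genes, 11 rose with a median difference of 1.67. Hist1h4d was 7.47 to 8.36 in spleen (median 7.54) and 9.40, 9.26 and 10.12 in WT and 9.06 and 9.54 in KO tumor libraries. All tumor libraries were higher, by 1.75 on average (SE 0.198, limma adjusted p = 3.02e-06). Hist1h4k and Hist1h4h rose by 1.79 and 1.66, and Hist1h4n had the largest rise, 2.34 (SE 0.29, limma adjusted p = 7.23e-06). Hist1h4n was spread widely in spleen, from 5.63 to 7.20 (median 5.83), and was 7.94 to 9.12 in tumor libraries.

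The genes that rose and those that were not called lay in different clusters. All 48 genes of the Hist1 cluster on chromosome 13 rose, with a median of 1.77, and so did all 10 of the Hist2 cluster on chromosome 3, with a median of 1.73. None of the 3 Hist3 genes on chromosome 11 and not the 1 Hist4 gene on chromosome 6 was called by limma, and none had an unadjusted p below 0.05. With equal totals 47 of 48 Hist1 and 8 of 10 Hist2 genes were higher, and all 4 genes of Hist3 and Hist4 were lower. Under that scaling 3286 of all 13897 genes were higher and 7819 were lower. No test of the difference between clusters was run.

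**Figure D3:**
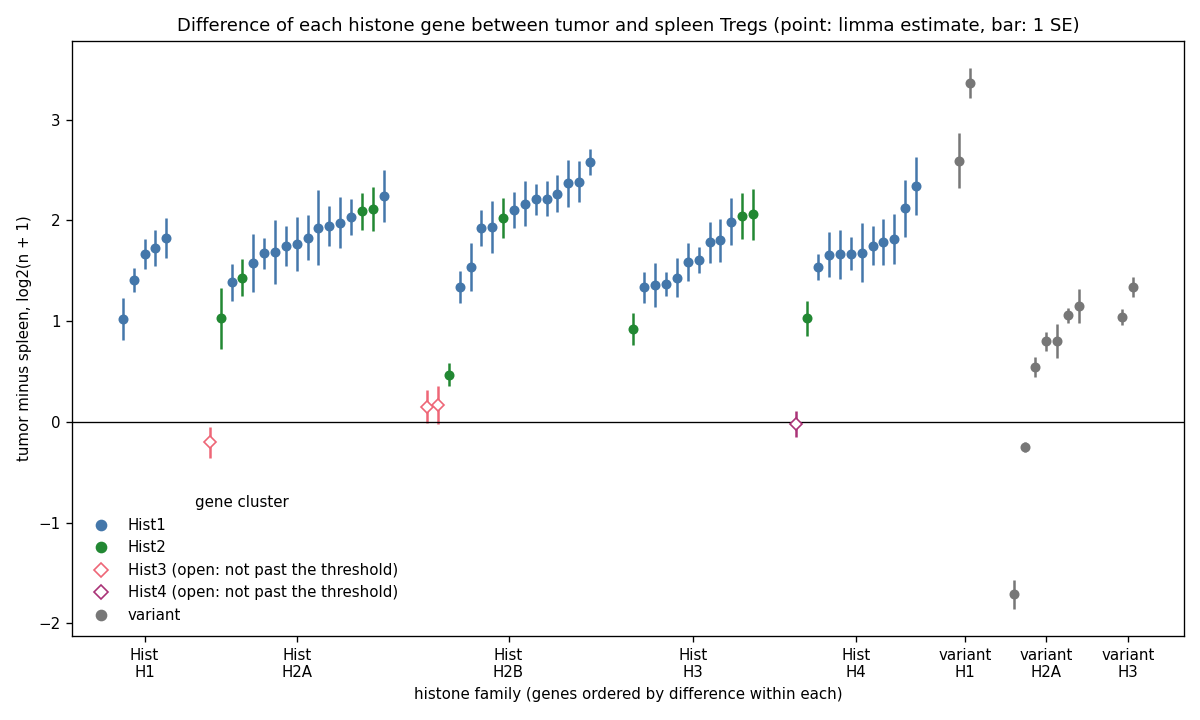
The y axis gives tumor minus spleen in log2(n + 1) for each of the 73 histone genes, ordered by size within a family on the x axis, with bars of 1 SE from limma. Filled points passed the threshold, and the 4 open diamonds, of the Hist3 and Hist4 genes, lie between -0.20 and 0.17.

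Hist3h2a, an H2A gene on chromosome 11 from 58954685 to 58956830, was 5.28 to 5.88 in spleen (median 5.30) and 5.41, 4.75 and 5.48 in WT and 5.36 and 5.34 in KO tumor libraries. The groups overlapped almost wholly, and the difference was -0.20 (SE 0.153, limma adjusted p = 0.236). It was lower past the threshold with median centring (-0.43), quantile normalization (-0.51) and equal totals (-0.82). The median of all genes moved to -0.14, -0.16 and -0.44 under these scalings. Exons of Trim17 overlap those of Hist3h2a on the same strand. Hist3h2ba differed by 0.17 (SE 0.187, limma adjusted p = 0.419) and its neighbor Hist3h2bb-ps, annotated as a processed pseudogene, by 0.15 (SE 0.165, limma adjusted p = 0.414). With equal totals both differences turned downward, to -0.42 and -0.44, close to the median of all genes under that scaling. In Hist3h2ba the spleen libraries ranged from 3.52 to 3.90 and the tumor libraries from 3.09 to 4.32. Hist4h4, an H4 gene on chromosome 6 from 136801553 to 136804415 on the minus strand, was 3.15 to 3.50 in spleen (median 3.37) and 3.27, 2.98 and 3.70 in WT and 3.48 and 3.16 in KO tumor libraries. Its difference was -0.02 (SE 0.128, limma adjusted p = 0.895), and with equal totals it was -0.59. As a share of the library total, the 3 Hist3 genes together stood in tumor at 0.630 times and Hist4h4 at 0.640 times their level in spleen. A stem-loop was found in 3 of the 4 genes, Hist3h2ba and Hist3h2a with the most common form and Hist4h4 with the common H4 form. It was also found in 37 of the 58 genes that rose. A part of the stem-loop in the difference was not tested.

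The annotated transcripts gave further descriptions of the class. Genes with 200 or fewer bases after the stem-loop (23 genes) had a median difference of 1.99, those with a longer tail (17 genes) 1.41, and those without a stem-loop (22 genes) 1.68. Many of the genes are nearly identical in sequence, and kallisto shares reads among copies. Of the 62 genes, 39 had unique 31-base words over less than 50% of their annotated transcripts, and all 39 rose, with a median of 1.93. Of the 23 with more unique sequence, 19 rose, with a median of 1.66, and the 4 genes that were not called were in this group. The 5 genes with no unique 31-base word were Hist2h2aa1, Hist2h2aa2, Hist2h2bb, Hist2h3b and Hist2h3c1. Words were compared on both strands, so transcripts of the opposite strand lower these shares as near copies do. Exons of another gene overlap 7 of the 62 genes on the same strand and 20 on the opposite strand, and whether the reads were assigned by strand is not given in the sources used here.

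The spread within a tissue was shared by many genes. In the 62 genes the SD over libraries had a median of 0.307 in spleen and 0.429 in tumor. The third WT tumor library was the highest tumor library in 56 of the 62 genes (90.3%), compared with 15.7% of all genes tested. The lowest tumor library was the first KO library in 29 genes and the second WT library in 26. In spleen the first WT library was highest in 31 genes and the third KO library in 20. Without the third WT tumor library, 58 genes were again called higher, and the median difference was 1.61.

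Variant histone genes changed less uniformly, with 9 of 11 higher and 2 lower and a median of 1.04. With equal totals 7 were higher and 2 lower, against 3286 higher and 7819 lower of all 13897 genes. In none of the 11 did the libraries of the tissues overlap, in either direction, which held for 63.5% of all genes tested. All 11 are described below, since they are few and differ in function.

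**Figure D4:**
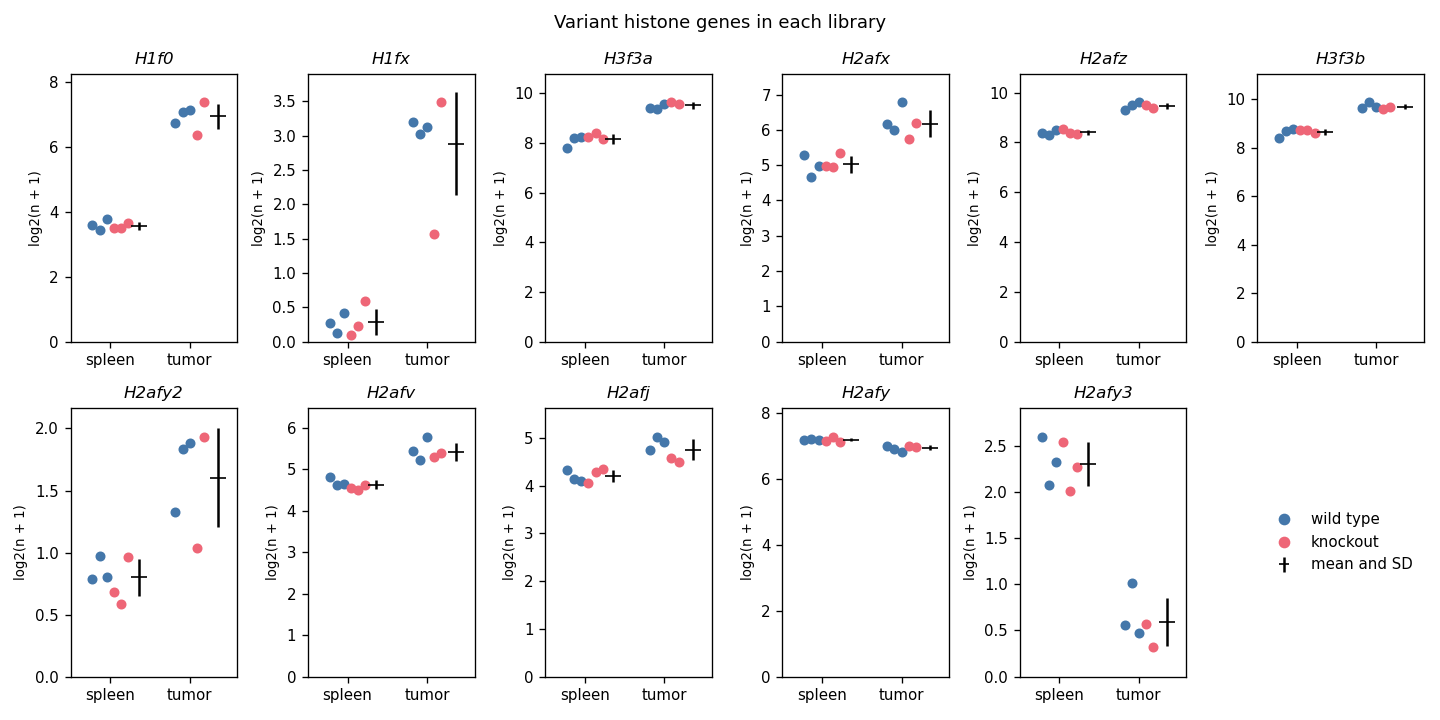
Each panel gives log2(n + 1) of 1 variant histone gene in 6 spleen and 5 tumor libraries, with points for libraries (blue WT, red KO) and a bar for mean and SD. Tumor points lie above spleen points in 9 panels and below them in those of H2afy and H2afy3, and the low tumor point of H1fx is the first KO library.

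The linker histone variants had the largest differences of any histone gene. H1f0, the linker variant known for accumulating in cells that have stopped dividing or have differentiated, lies on chromosome 15 from 79028450 to 79030504. Its log2(n + 1) was 3.46 to 3.78 in spleen (median 3.55) and 6.75, 7.09 and 7.14 in WT and 6.36 and 7.38 in KO tumor libraries. The lowest tumor library was thus far above the highest spleen library, and the difference was 3.37 (SE 0.15, limma adjusted p = 6.29e-10), rank 376 of 13897 from the largest rise to the largest fall. H1fx, another linker variant, was barely present in spleen, at 0.10 to 0.59, and was 3.20, 3.02 and 3.13 in WT and 1.57 and 3.49 in KO tumor libraries. It differed by 2.59 (SE 0.276, limma adjusted p = 1.73e-06), with the first KO library well below the other tumor libraries. Summed, the n of this pair was 11.8-fold higher in tumor (7.68-fold as a share of the library). The n of the 5 replication-dependent H1 genes was 3.02-fold higher (1.93-fold as a share). The log2 ratio of replication-dependent to variant H1 within a library therefore fell, from 5.36 ± 0.32 (SD, n = 6) to 3.43 ± 0.39 (SD, n = 5), the ranges being 4.74 to 5.66 and 2.90 to 3.80. A common scaling of a library cancels in this ratio, while the lengths of the genes do not. The difference H1f0 minus H1fx within a library was 3.29 ± 0.12 in spleen and 4.06 ± 0.45 in tumor, and the shift of 0.77 had p = 0.00433 in an exact two-sided permutation test over 462 splits, the smallest p it allows (adjusted p = 0.013 over 3 pairs). That test takes the libraries as independent, although they share mice, and with libraries paired by replicate number the adjusted p was 0.125 by exact sign permutation, which with 5 pairs allows no unadjusted p below 0.0625. Its sign depended on the pseudocount, since it was -0.93 with 0.1 in place of 1 added to n, as H1fx was close to 0 in spleen. Exons of Gm49544 overlap H1f0 on the opposite strand, and H1fx is overlapped by other genes on both strands.

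The H3.3 genes H3f3a and H3f3b encode the same protein, the H3 variant that is deposited outside replication at active genes and elsewhere. H3f3a was 7.79 to 8.41 in spleen (median 8.22) and 9.40, 9.35 and 9.58 in WT and 9.64 and 9.59 in KO tumor libraries, a difference of 1.34 (SE 0.1, limma adjusted p = 6.02e-08). H3f3b was 8.38 to 8.76 in spleen (median 8.70) and 9.64, 9.87 and 9.70 in WT and 9.58 and 9.66 in KO tumor libraries, a difference of 1.04 (SE 0.0788, limma adjusted p = 6.73e-08). Both rose in all tumor libraries and with little spread between them. The difference H3f3a minus H3f3b within a library went from -0.48 ± 0.10 to -0.18 ± 0.22 (SD over 6 and 5 libraries). The shift of 0.30 had p = 0.0216 in the same exact permutation test and an adjusted p of 0.0325. The groups overlapped, since the second WT tumor library, at -0.52, was as low as the spleen libraries, and leaving out any of 6 single libraries moved the adjusted p above 0.05. Paired by replicate number, the shift had an adjusted p of 0.125 (exact sign permutation).

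The H2A.Z genes H2afz and H2afv encode near-identical variants found at promoters. H2afz was 8.29 to 8.55 in spleen (median 8.40) and 9.29, 9.51 and 9.61 in WT and 9.52 and 9.40 in KO tumor libraries, a difference of 1.06 (SE 0.071, limma adjusted p = 2.2e-08). H2afv was 4.50 to 4.82 in spleen (median 4.62) and 5.45, 5.21 and 5.77 in WT and 5.28 and 5.38 in KO tumor libraries, a difference of 0.80 (SE 0.0964, limma adjusted p = 5.71e-06). With equal totals H2afv was no longer past the threshold (0.19, limma adjusted p = 0.0718). The difference H2afz minus H2afv within a library was 3.79 ± 0.16 and 4.05 ± 0.21, and the shift of 0.26 had p = 0.0693 in the exact two-sided permutation test (adjusted p = 0.0693).

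H2afx encodes H2A.X, whose phosphorylated form marks broken DNA, and its mRNA can end either in the stem-loop shown above or in a poly(A) tail. It was 4.67 to 5.34 in spleen (median 4.97) and 6.18, 6.0 and 6.78 in WT and 5.74 and 6.20 in KO tumor libraries. Its difference of 1.15 (SE 0.166, limma adjusted p = 2.93e-05) was the largest rise among the H2A variants, and as in the replication-dependent genes the third WT tumor library was highest and the first KO library lowest. H2afj, a further H2A variant, was 4.05 to 4.34 in spleen (median 4.21) and 4.75, 5.02 and 4.91 in WT and 4.57 and 4.49 in KO tumor libraries. It differed by 0.54 (SE 0.103, limma adjusted p = 0.000302) as deposited, but by -0.05 with equal totals.

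The macroH2A genes went in opposite directions. H2afy, which encodes macroH2A1, a large H2A variant linked to silent chromatin, was 7.12 to 7.25 in spleen (median 7.16) and 7.0, 6.88 and 6.82 in WT and 6.97 and 6.97 in KO tumor libraries. The fall was small, -0.25 (SE 0.0512, limma adjusted p = 0.000607), with no overlap between tissues. H2afy2, which encodes macroH2A2, was low, at 0.59 to 0.97 in spleen and 1.33, 1.83 and 1.88 in WT and 1.04 and 1.93 in KO tumor libraries, a difference of 0.80 (SE 0.165, limma adjusted p = 0.000594). H2afy3 is annotated as a processed pseudogene and overlaps exons of Pvt1 on the opposite strand. It was 2.0 to 2.59 in spleen (median 2.29) and 0.56, 1.02 and 0.47 in WT and 0.57 and 0.32 in KO tumor libraries, a fall of -1.71 (SE 0.146, limma adjusted p = 2.17e-07). It was the largest fall of any histone gene, and reads from Pvt1 cannot be told apart from its own if strand was not used.

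Set against the replication-dependent genes of their family, the variants of H2A and H3 fell behind while those of H1 moved ahead. The log2 ratio of replication-dependent to variant H2A, from summed n, went from 0.92 ± 0.27 to 1.95 ± 0.37 (SD over 6 and 5 libraries), without overlap. For H3 it was 0.25 ± 0.43 and 0.79 ± 0.41, and the ranges, -0.17 to 0.94 in spleen and 0.35 to 1.40 in tumor, overlapped. These ratios are given as a description, without a test.

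The rise was present in both genotypes. In WT mice 67 of the 73 histone genes were higher and 2 lower in tumor, against 39.2% of all genes higher, and in KO mice 64 were higher and 2 lower, against 36.2%. Among the replication-dependent genes, 58 were higher in WT and 56 in KO mice. With equal totals 59 of the 73 were higher in WT and 48 in KO mice, and 4 were lower in each. No count over all genes was made by genotype under that scaling. With genotypes pooled, it gave 3286 of all 13897 genes higher and 7819 lower. H2afj, Hist1h2an and Hist2h2ab were past the threshold in WT and not in KO mice, where 2 tumor libraries were available. H2afj differed by 0.71 in WT and 0.31 in KO mice, and Hist2h2ab by 1.58 and 0.32. Fewer histone genes were called in KO mice without the second KO tumor library, the remaining KO tumor library being assumed to vary like the others. No such count was made over all genes. No test of the interaction between tissue and genotype was past the threshold in limma, in the histone genes or among all genes (0%). At an unadjusted p below 0.05 there were 3 histone genes, H2afj (-0.40), Hist1h2bk (-0.76) and Hist2h2ab (-1.26), and 383 genes in all. The smallest adjusted p of a histone gene was 0.9997 in that limma test and in both tests between genotypes.

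KO and WT mice were not found to differ in histone genes within a tissue. In spleen limma called 0 of the 73 genes (0% of all genes), with 0 histone genes and 281 genes in all at an unadjusted p below 0.05. In tumor it also called 0, against 0.0072% of all genes (1 gene), with 1 histone gene, H2afj (-0.36), and 634 genes in all at an unadjusted p below 0.05. The median KO minus WT difference over the replication-dependent genes was 0.11 in spleen, where 47 of 62 were positive, and -0.17 in tumor, where 13 of 62 were positive. Both signs rest on single libraries. Over all 73 histone genes the tumor median was -0.17, and it was 0.08 without the third WT and 0.08 without the first KO tumor library. The spleen median was 0.09, and it was -0.02 without the second WT and -0.01 without the third KO spleen library. The groups hold 2 or 3 libraries, and a difference of the size of the spread between libraries was not detectable.

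Genes of cell division moved in the same direction. Counts of this and the following lists from the deposited values stand against 43.1% of all genes higher and 35.9% lower. Those with equal totals stand against 3286 of all 13897 genes higher and 7819 lower, with a median of -0.44. All 20 mitosis genes tested rose, with a median of 1.51 (0.93 with equal totals, again 20 of 20). Cdk1, the kinase that starts mitosis, rose by 2.32 (SE 0.153, limma adjusted p = 1.82e-08), from 2.86 to 3.79 in spleen libraries to 5.42 to 5.96 in tumor libraries. Ccna2, which encodes cyclin A2, rose by 1.82. The DNA replication genes rose less, with 31 of 40 higher, 1 lower and a median of 0.62, and with equal totals 13 were higher and 10 lower with a median of 0.07. E2f1, a transcription factor of S-phase genes, rose by 1.81 and Gins2, a subunit of the replicative helicase, by 1.75.

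**Figure D5:**
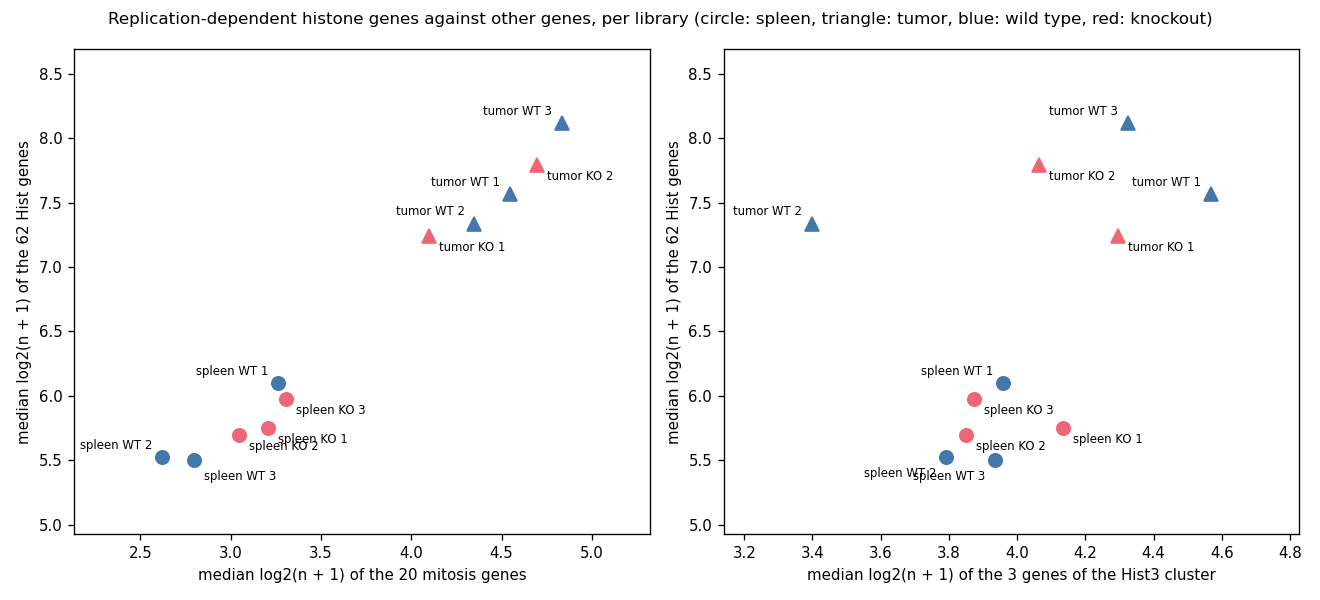
Each point is 1 of the 11 libraries. The y axis of both panels is the median log2(n + 1) of the 62 replication-dependent genes, and the x axis is that of 20 mitosis genes on the left and of the 3 Hist3 genes on the right. Tumor libraries stand in the same order on both axes of the left panel, and in the right panel the tumor libraries spread along the x axis around the spleen libraries.

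Within tumor, the libraries kept the same order for the replication-dependent and the mitosis genes, but not for the DNA replication or the Hist3 genes. The median log2(n + 1) of the replication-dependent genes was 7.57, 7.34 and 8.12 in WT and 7.24 and 7.80 in KO tumor libraries. That of the mitosis genes was 4.55, 4.35 and 4.83 in WT and 4.10 and 4.69 in KO libraries, so that the third WT library was highest and the first KO library lowest for both. In spleen the replication-dependent median was 6.10, 5.52 and 5.50 in WT and 5.75, 5.69 and 5.97 in KO libraries, and the mitosis median was 3.26, 2.62 and 2.80 in WT and 3.20, 3.04 and 3.31 in KO libraries. The DNA replication median in tumor was 4.35, 4.28 and 4.43 in WT and 4.21 and 4.47 in KO libraries. There the second KO library was highest and the first KO library lowest. In spleen it was 4.02, 3.69 and 3.92 in WT and 3.91, 4.04 and 3.91 in KO libraries. The Hist3 median in tumor, 4.57, 3.40 and 4.32 in WT and 4.30 and 4.06 in KO libraries, had another order. The points of a library share its scaling, and no test was made of these orders.

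Most genes of the machinery that makes and ends histone mRNA did not rise. Of 18 genes of histone mRNA synthesis and processing, 4 rose and 8 fell with a median of -0.15, and with equal totals 1 was higher and 15 were lower. Slbp, which encodes the protein that binds the stem-loop, stood at 6.26 ± 0.11 in spleen and at 6.21 ± 0.13 in tumor libraries, a difference of -0.05 (limma adjusted p = 0.553). Npat, which encodes the cyclin E target that activates histone genes, differed by -0.23 (limma adjusted p = 0.0878). Both were lower past the threshold under quantile normalization (-0.47 and -0.46), median centring (-0.27 and -0.46) and equal totals (-0.67 and -0.80). The medians of all genes under these scalings were -0.16, -0.14 and -0.44. Lsm10, which encodes a subunit of the U7 particle that cuts histone pre-mRNA, rose by 1.17, and Pou2f1, which encodes the octamer-binding factor Oct-1, fell by 0.97 on the log2 scale.

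Chaperones that hand new H3 and H4 to replicating DNA were higher in 9 of 13 genes and lower in 0, with a median of 0.39, but with equal totals 4 were higher and 5 lower, with a median of -0.22. Asf1b rose by 1.52 (SE 0.166, limma adjusted p = 2.28e-06) and Chaf1a, the large subunit of the CAF-1 assembly factor, by 1.48 (SE 0.139, limma adjusted p = 5.12e-07). Of 17 genes of variant deposition, 7 were higher (41.2%, close to the 43.1% of all genes) and 9 lower with a median of -0.21, and with equal totals 1 was higher and 12 were lower, where 7819 of all 13897 genes were lower. Hira, which encodes a chaperone of H3.3, fell by 0.68 on the log2 scale (limma adjusted p = 2.25e-05) and Atrx, of another H3.3 pathway, by 1.41, while both H3.3 genes rose. Znhit1, a subunit of the complex that exchanges H2A.Z, rose by 1.80, as H2afz did by 1.06. Cenpa, the H3 variant of centromeres, rose by 0.94 (limma adjusted p = 8.7e-05) but was not past the threshold with equal totals (0.32). Of 7 genes that act on H2A.X at broken DNA, 0 rose and 6 fell with a median of -0.56, among them the kinase genes Atm (-1.37) and Prkdc (-1.20), while H2afx itself rose.

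Markers of other cells differed between the tissues too. Of 8 genes of Treg identity, 2 were higher and 5 lower in tumor, and Foxp3 ranged from 5.98 to 6.75 in spleen and from 4.72 to 6.12 in tumor libraries, a difference of -0.85 (limma adjusted p = 0.00357). Ikzf2 differed by -1.09 and Tnfrsf18, which encodes the sorted surface protein GITR, by 1.08. All 16 myeloid markers tested of 18 listed rose, with a median of 4.97, led by Cd14 (8.19) and Lyz2 (7.60), and their summed n was 318 to 621 in spleen and 13510 to 19479 in tumor libraries. All 6 fibroblast markers tested of 9 rose, with a median of 6.02, led by Col3a1 (8.57) and Sparc (6.44), and their summed n went from 7.96 to 19.7 in spleen to 1032 to 2353 in tumor libraries. Of 10 CD8 T and NK cell markers, 6 rose and 1 fell, led by Gzmb (5.43) and Cd8a (3.99). Of 7 B-cell markers tested, 1 rose and 5 fell, led by Ms4a1 (-1.39) and Cr2 (-1.20), and of 8 erythroid and platelet markers tested, 1 rose and 7 fell, with Pf4 at 6.34 and Hbb-bs at -3.81. The part of these cells in the histone values was not tested.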

How the data were processed

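Tregs from MC38 tumors and spleens gave 11 RNA-seq libraries, grouped here by the tissue and genotype in their titles. The authors removed ribosomal RNA, read the libraries single-end and assigned the reads to mm10 transcripts by kallisto. They then took the estimates through sleuth 0.30.0, added them up per gene symbol and deposited log2 values, as log2(n + 1), for 14604 genes. For the kallisto version, the annotation and any scaling of n, the sources used here give nothing. The methods state an approximate depth per library, but reads per gene cannot be worked out from n, and precision is judged from the spread between libraries alone.

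The deposited values were used without rescaling. Linear models were fitted in limma (version 3.58.1, under R 4.3.3), with variances moderated along a trend on the mean, to the 13897 genes with a mean of at least 0.5, and p-values were adjusted by Benjamini-Hochberg over all of them. This replaced the unpaired T test with Bonferroni correction of the paper, which was kept as an alternative. Tissues were compared with genotypes pooled, and in a model with a mean for each of the 4 groups. Because 1 is added to n, changes of weakly expressed genes come out too small on this scale. Differences within a library between pairs of genes were compared by exact permutation over libraries, without pairing, since the labels do not tie spleen and tumor libraries to a mouse. The code of the fit was run on simulated data with known changes, in which each gene varied independently of the others. That run does not measure how the fit does where genes vary together, as the histone genes did. All 73 histone genes passed the filter. GENCODE M21 names 91 genes by the same rule, of which 18 are not listed. Positions are on GRCm38.

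Genes are named by a rule: all variants, in each replication-dependent family the 3 with the highest mean and those with the largest rise and fall, any histone gene called against the direction of most of its class, and in each pathway list the 2 called genes with the largest difference, with Slbp, Npat, Chaf1a, Asf1b, Hira and Cenpa. Foxp3 and genes named for an overlap, a missing call or a genotype value were chosen after their values were seen. The members and lists were chosen with earlier results of these data known. Alternatives changed the scaling, the pseudocount (0.1 or 5), the filter, the variance trend, the correction, a minimum difference of 1, the replicate block and the libraries, each left out in turn.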

Additional observations from a re-analysis of the deposited data

Results flagged for a closer look

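In 33 genes named in the text, the highest and lowest of the libraries of each tissue were examined by Dixon's ratio, which marks about 1 in 20 groups by chance. It marked 3 of 66 groups. H1fx was lowest in the first KO tumor library, at 1.57, against 3.02 to 3.49 in the other tumor libraries. Hist3h2a was lowest in the second WT tumor library, at 4.75, against 5.34 to 5.48 in the others. Hist2h2bb was highest in the first WT spleen library, at 7.29, against 6.70 to 6.90 in the others.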

How the results depend on the processing

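Calls of replication-dependent and variant genes between tissues kept their counts within 1.5 times under quantile normalization, median centring, equal totals, the other pseudocounts, filter and variance trend, and with each library left out. These counts take both directions together, and with equal totals they hold 55 replication-dependent genes higher and 4 lower. Bonferroni correction lowered them to 37 of 62 and 7 of 11 (5051 of all genes instead of 10971, 13 histone genes in WT mice instead of 69, 3 in KO mice instead of 66, and 44 pathway genes instead of 95). A minimum difference of 1 left 7 variants, 4556 genes and 34 pathway genes. With values summed by family before the fit, all 5 replication-dependent and all 3 variant families were called higher. H2afj turned to -0.055 with equal totals.

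With 1 library left out, counts ranged from 58 to 60 for replication-dependent genes and from 67 to 69 for histone genes in WT mice. In KO mice the lowest count came where 1 KO tumor library was left. Hist4h4 ranged from -0.12 to 0.066 and Slbp from -0.081 to 0.0041, never past the threshold. The shift of H3f3a minus H3f3b ranged from 0.24 to 0.38 (adjusted p 0.0143 to 0.0714) and lost its call without WT spleen library 1 or 3, WT tumor library 1 or 3, or either KO tumor library, where 1 KO library is left. That of H2afz minus H2afv ranged from 0.20 to 0.31 and was past the threshold only without the first KO spleen library. That of H1f0 minus H1fx ranged from 0.59 to 0.90 and kept its call. With a pseudocount of 0.1 the shifts of H3f3a minus H3f3b and H1f0 minus H1fx were 0.30 (adjusted p = 0.0649, exact permutation) and -0.93 (adjusted p = 0.0714), and with 5 that of H2afz minus H2afv was 0.34 (adjusted p = 0.0195). The cause of these losses was not tested.

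Spleen and tumor libraries share mice by the methods, but no label ties a replicate number to a mouse, and deviations of same-numbered libraries from their group means correlated at -0.13 to 0.04, so the numbers were not taken to pair the samples in the reported tests. With the replicate block, 58 replication-dependent and 11 variant genes were called, as without it, and Hist4h4 was at 0.012. Paired by number, the shift of H3f3a minus H3f3b was 0.30 (positive in 4 of 5 pairs) and that of H1f0 minus H1fx 0.73 (positive in 5 of 5), each with an adjusted p of 0.125 by exact sign permutation, so neither call held under pairing. With 5 pairs no unadjusted p below 0.0625 is possible, so this loss does not measure the size of the shifts. No counting error was computed for low genes such as H1fx, H2afy2 and Hist2h2be, since reads per gene cannot be worked out from n.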
